A study of Mus musculus with 12 samples.

Results

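The genes described are 38 transcripts of lymphocytes, 16 of natural killer (NK) cells and 22 of T cells, chosen by symbol with earlier results of these data known. They were followed in RNA of bead-isolated liver sinusoidal endothelial cells (LSECs), the fenestrated endothelium of the liver's capillaries. Of the list, 35 genes had a row in the expression table of 24011 named genes: 15 NK and 20 T cell genes. Klra8, Lck and Tcf7 were not analysed here. The rule named the genes by symbol and used measured values only to keep the row of highest mean per symbol.

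The series compared 4 mouse genotypes, all labelled C57BL/6J and aged 3 to 4 months: Stab1KO, Stab2KO, the double knockout of both genes (DKO, labelled Stab DKO) and wild type (WT, labelled Ctrl). The 2 genes encode the stabilins, large scavenger receptors that LSECs use to clear material from blood. Each genotype had 3 Affymetrix arrays, and each array held the RNA of 3 pooled mice, so differences between single mice were not measured. LSECs were taken from perfused livers with magnetic beads against CD146. No source used here gives how the alleles were made or how the mice were related.

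NK cells kill stressed or infected cells without a clonal antigen receptor. They read a balance of activating and inhibitory surface receptors, and release perforin and granzymes from their granules. T cells recognise peptides through a clonal receptor whose signal is carried by the CD3 chains and passed on by kinases such as Zap70. Both lie inside the liver sinusoids, next to the endothelium, and the mouse liver is rich in NK cells. The lists are not exclusive: T cells can make Prf1, Gzmb, Nkg7, Tbx21 and Il2rb, and NK cells can make Ifng, Cd2, Cd27, Cd247 and Zap70.

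The values are log2 expression after RMA, a method that corrects background, scales arrays to one distribution and summarises probes. The 12 arrays share a median of 5.11 log2 over all rows. No detection calls were used, so values near or below that median may hold mostly background, and levels of different genes are not compared. Stab1 lay between 4.98 and 5.45 in Stab1KO and DKO arrays, against 12.46 to 12.62 in the other arrays. Stab2 lay between 5.46 and 7.60 in Stab2KO and DKO arrays, against 12.99 to 13.09 in the others. The mean of 11 LSEC genes lay between 12.75 and 13.05 in every array, and Mcam, which encodes the bead target CD146, between 11.05 and 11.38. DKO replicate 3 stood apart: it correlated with the other arrays at 0.956 to 0.968, and its mean of 11 neutrophil genes was 12.28, against 5.13 to 6.49 in the other 11 arrays. The bead preparations are mixed-cell samples in this respect, and fewer cells of a type and less RNA per cell cannot be told apart. Nothing says which mice or days the pools share, so p-values measure the spread between pools.

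No NK or T cell gene passed the test in any of the 7 comparisons of genotypes. The NK genes varied widely between arrays of the same genotype and put those arrays in nearly the same order, while most T cell genes spanned under 1 log2 over all arrays. Hepatocyte and neutrophil markers varied more widely still. The test was limma, 1 linear model over the 12 arrays with Benjamini-Hochberg adjustment over the 24011 genes, and calls were made where the adjusted p was under 0.05.

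Gzma had the widest spread of the NK list. It encodes granzyme A, a serine protease of cytotoxic granules that is delivered into target cells. It measured 7.69, 6.91 and 8.88 log2 in Stab1KO, 9.23, 9.38 and 8.63 in Stab2KO, 9.62, 8.56 and 8.40 in DKO and 6.88, 7.52 and 9.02 in WT. The values of every knockout overlapped those of WT, and WT alone spanned 2.15 log2. Prf1, the gene of the pore-forming protein perforin, measured 6.65, 6.31 and 7.43 log2 in Stab1KO, 7.54, 8.03 and 7.34 in Stab2KO, 8.18, 7.60 and 7.50 in DKO and 6.45, 6.64 and 7.68 in WT. Its lowest values were in WT and Stab1KO arrays and its highest was in DKO replicate 1. Gzmb, the gene of granzyme B, measured 6.00, 5.42 and 6.87 log2 in Stab1KO, 6.51, 7.32 and 5.59 in Stab2KO, 7.45, 7.09 and 7.24 in DKO and 5.56, 6.07 and 7.05 in WT. The 3 DKO arrays lay close together and above the 3 WT arrays, and overlapped Stab2KO. Nkg7, a granule membrane protein gene needed for full degranulation, measured 6.87, 6.08 and 7.86 log2 in Stab1KO, 7.54, 8.02 and 7.06 in Stab2KO, 8.25, 7.39 and 7.55 in DKO and 6.30, 6.71 and 7.75 in WT, and the knockouts overlapped WT.

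Among the surface receptors, Ncr1 encodes NKp46, an activating receptor that marks NK cells and related innate lymphocytes. It measured 7.06, 6.23 and 7.57 log2 in Stab1KO, 8.34, 8.54 and 7.65 in Stab2KO, 8.62, 7.69 and 7.40 in DKO and 6.35, 6.94 and 8.04 in WT. The highest value was in DKO replicate 1, and WT replicate 3 lay within the Stab2KO range. Klra4, an activating Ly49 receptor gene, measured 3.91, 4.88 and 4.55 log2 in Stab1KO, 5.78, 5.55 and 5.07 in Stab2KO, 4.87, 4.84 and 4.16 in DKO and 4.54, 4.15 and 4.98 in WT. The 3 Stab2KO arrays lay above all the other arrays. Of the 35 members, 10 lie on chromosome 6 in the RefSeq table, among them Klrb1c, Klre1, Klrk1, Klrd1, Klra4 and Klrg1. Klra4 has close paralogs in the Ly49 cluster, so the probes may also read other members, and its value is uncertain. The other receptor genes spanned 1.10 to 1.61 log2 over the 12 arrays. Klrb1c, the gene of NK1.1, measured 5.45 to 6.62. Klrk1, the gene of the activating receptor NKG2D, measured 5.08 to 6.70. Klrd1, whose product CD94 pairs with NKG2 chains, measured 5.05 to 6.56. The ranges of these 3 genes overlapped between all genotypes. Klre1 measured 4.01 to 5.11 and Klrg1, an inhibitory receptor gene of mature NK and effector T cells, 4.41 to 5.67.

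Il2rb, the gene of the receptor chain shared by interleukins 2 and 15, measured 6.16 to 7.48 over the 12 arrays. Tbx21 and Eomes encode T-bet and eomesodermin, T-box factors of NK cell development. They measured 5.59 to 6.38 and 4.00 to 5.01. Txk, a Tec family kinase gene, measured 4.82 to 5.54. The SD within genotypes was 0.25 for Tbx21, 0.27 for Eomes and Txk and 0.45 for Il2rb. It was larger for the granule genes, at 0.84 for Gzma, 0.69 for Gzmb, 0.67 for Nkg7 and 0.51 for Prf1. Eomes and Klre1 were the NK genes that did not exceed the shared median in any array.

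**Figure D1:**
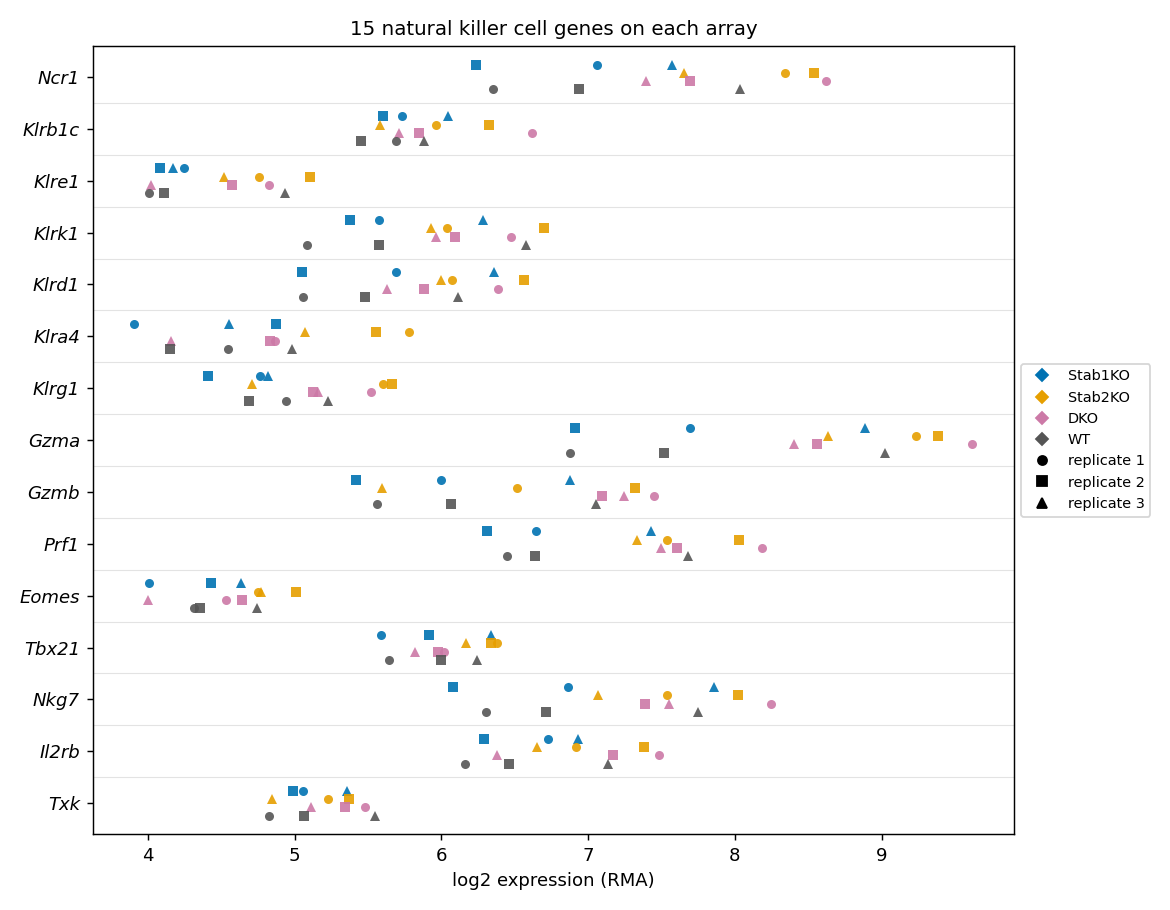
Log2 expression (horizontal axis) of the 15 NK cell genes, 1 row per gene, with a point for each of the 12 arrays coloured by genotype and shaped by replicate. Within a genotype the same array tends to lie furthest right from gene to gene, such as DKO replicate 1 and WT replicate 3, and the genotypes overlap for most genes.

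The NK genes put the arrays of a genotype in nearly the same order. WT replicate 3 was the highest WT array for 15 of 15 NK genes, against 31.5% of all genes. DKO replicate 1 was the highest of its genotype for 14 of 15, Stab1KO replicate 3 for 13 and Stab2KO replicate 2 for 13, against 37.6%, 35.3% and 30.4% of all genes. The lowest arrays were somewhat less uniform. Stab2KO replicate 3 was lowest for 14 of 15, against 37.7% of all genes. Stab1KO replicate 2, DKO replicate 3 and WT replicate 1 were lowest for 12 each, against 34.8%, 46.1% and 30.7% of all genes. DKO replicate 3 is the array with the neutrophil genes, and the part of these in the order of the DKO arrays was not tested. The mean of the 15 genes was 5.70, 5.47 and 6.27 in Stab1KO, 6.44, 6.75 and 6.04 in Stab2KO, 6.69, 6.26 and 6.00 in DKO and 5.45, 5.68 and 6.46 in WT. Each genotype's range thus overlapped that of WT, whose own range of 1.01 log2 was the widest. Because the NK genes moved together, counts of them in the comparisons below are not counts of independent observations.

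T cell genes shared this order in part. Stab1KO replicate 3, Stab2KO replicate 2 and WT replicate 3, the arrays at the top for NK genes, were each the highest of their genotype for 10 of 20 T cell genes, against 35.3%, 30.4% and 31.5% of all genes. DKO replicate 1 was the highest for 3 of 20, against 37.6% of all genes. No array was the highest for more than 10 of 20, and the mean of the 20 genes stayed between 4.94 and 5.23 in all arrays. To name genes patterned like the NK list, every gene was asked in how many genotypes its highest array was that of the NK mean. All 4 matched for 11 of the 15 NK genes, which themselves made the mean, for 1 of 20 T cell genes and for 1.16% of all genes. The T cell gene was Ifng, the gene of interferon gamma, a main cytokine of NK cells as well as T cells. Cd2, Cd8b1, Lef1 and Cxcr3 matched in 3 genotypes, 4 of 20 beside 2322 of 24011 over all genes.

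Outside the members, 4 of 24 further NK receptor and adaptor genes matched in all 4 genotypes, beside 1.16% of all genes. They were Klra9, Klrb1f, Klrc1 and Klri2. Single matches in other lists were Ctsw, a protease gene of cytotoxic lymphocytes, Xcl1 and Ccl5, chemokine genes of activated NK and T cells, Il12rb2, a chain of the interleukin 12 receptor, and Sh2d2a, a T cell adaptor. In the list of T cell identity, Ms4a4b and Trbc1 matched, among 18 genes. None matched in all 4 genotypes among the 11 LSEC, 10 Kupffer cell, 11 neutrophil, 6 B cell, 9 stellate cell and 6 hepatocyte markers. With 1.16% of all genes matching, lists this short would mostly hold none, so this absence does not set the NK genes apart. The Kupffer cell mean, of the liver's resident macrophages, was highest in Stab1KO replicate 3, Stab2KO replicate 2, DKO replicate 2 and WT replicate 2. It shared 2 of its 4 top arrays with the NK genes. The mean of the 24 NK receptor and adaptor genes was highest in DKO replicate 3, at 4.84, against 4.54 in DKO replicate 1. The means of 10 cytotoxic effectors and 7 genes of tissue-resident lymphocytes were also highest in DKO replicate 3. In Stab1KO, Stab2KO and WT these list means were highest in the same arrays as the NK mean. Single genes weigh in such means. Tyrobp, an adaptor gene, and Il18rap, of the tissue-resident list, were far higher in DKO replicate 3 than in DKO replicate 1, with values given below. The DKO means therefore do not show that these lists as a whole were highest in replicate 3.

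**Figure D2:**
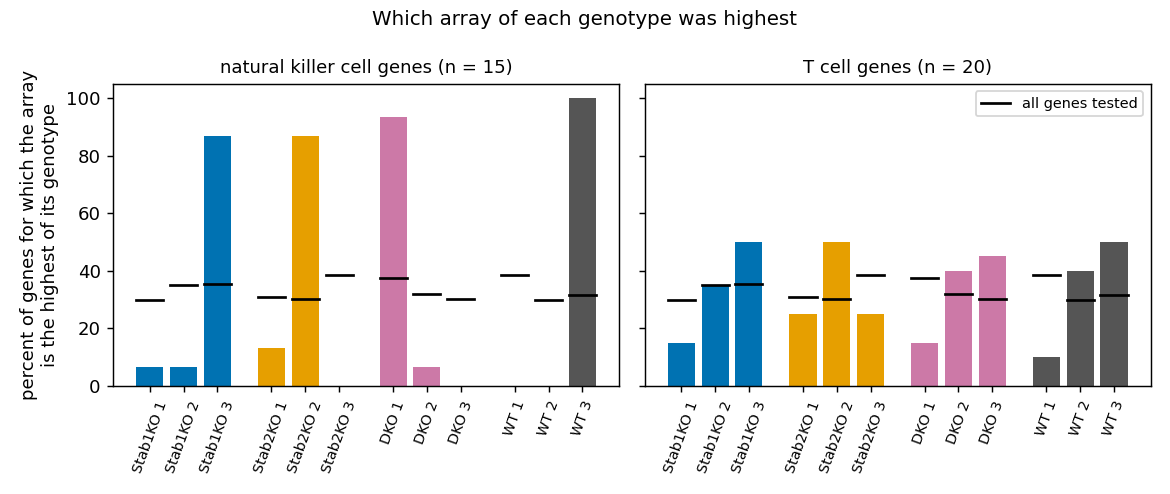
Share of genes (vertical axis, percent) for which each array was the highest of its genotype, for 15 NK cell genes (left) and 20 T cell genes (right), with black lines for all 24011 genes. One array per genotype takes 86.7% to 100% of the NK genes, while no array takes more than 50% of the T cell genes.

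The promoters of 4 granule and receptor genes that put the arrays in this order are shown, chosen after the motif search among those with a match, from 250 bases before to 50 bases after the gene's start (RefSeq, GRCm38.p6, 5′ to 3′ on the gene's strand). They are Ncr1 (chr7:4337465-4337764, plus strand), Gzma (chr13:113100932-113101231, minus strand), Gzmb (chr14:56262285-56262584, minus strand) and Prf1 (chr10:61297586-61297885, plus strand). Capitals mark TGTGGT or its reverse complement ACCACA, the core letters recognised by Runx factors.
Ncr1: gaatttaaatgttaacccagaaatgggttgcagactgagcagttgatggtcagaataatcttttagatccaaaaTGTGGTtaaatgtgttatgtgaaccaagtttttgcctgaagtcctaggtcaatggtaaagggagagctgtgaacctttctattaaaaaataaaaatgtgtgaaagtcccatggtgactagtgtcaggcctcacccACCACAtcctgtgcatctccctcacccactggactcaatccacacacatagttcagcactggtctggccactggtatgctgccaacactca
Gzma: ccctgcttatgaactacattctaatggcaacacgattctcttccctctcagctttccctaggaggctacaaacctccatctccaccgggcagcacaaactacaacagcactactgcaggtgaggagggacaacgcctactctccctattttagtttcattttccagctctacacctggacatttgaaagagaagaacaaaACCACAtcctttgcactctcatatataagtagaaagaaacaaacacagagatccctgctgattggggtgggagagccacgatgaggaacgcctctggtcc
Gzmb: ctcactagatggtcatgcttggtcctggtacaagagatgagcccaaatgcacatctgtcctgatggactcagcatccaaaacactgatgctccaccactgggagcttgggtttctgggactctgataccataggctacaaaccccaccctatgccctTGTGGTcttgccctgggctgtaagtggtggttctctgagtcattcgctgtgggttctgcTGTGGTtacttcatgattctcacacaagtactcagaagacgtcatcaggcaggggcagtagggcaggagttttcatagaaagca
Prf1: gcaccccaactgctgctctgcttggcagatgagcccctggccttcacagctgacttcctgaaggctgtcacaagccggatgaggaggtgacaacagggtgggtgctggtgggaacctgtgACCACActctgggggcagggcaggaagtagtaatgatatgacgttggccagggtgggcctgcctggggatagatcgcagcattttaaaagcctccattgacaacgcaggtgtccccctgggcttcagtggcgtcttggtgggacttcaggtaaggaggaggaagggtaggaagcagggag
Of the 35 members, 26 had a promoter in the table, and the first listed start of each gene was used. These letters were present in 8 of 12 NK gene promoters and 3 of 14 T cell gene promoters, against 16.9% of 27025 promoters of the same length. The T-box letters GGTGTGA or TCACACC were in 1 of 12 NK gene promoters, that of Nkg7, and in 0 of 14 T cell gene promoters, against 3.96% of all. The Ets letters AGGAAG or CTTCCT were in 5 of 12 and 8 of 14, against 35.1% of all. No motif lies within another, though neighbouring matches can share bases, and all were searched on both strands, after the expression values were known. A match describes the letters, and binding was not measured.

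In Stab2KO against WT, all 15 NK genes lay above WT in mean, and none was called. The median difference was 0.44 log2, beside 0.0065 over all genes, of which 52% lay above WT. The call rate over all genes was 0.296%. At an unadjusted p under 0.05, Klra4 and Ncr1 passed, beside 7.62% of all genes. Klra4 differed by 0.91 ± 0.30 (SE, adjusted p = 0.46) and Ncr1 by 1.07 ± 0.48 (adjusted p = 0.65). The 3 Stab2KO arrays lay above the 3 WT arrays for Klra4 and Eomes, beside 8.09% of all genes, and overlapped WT for the other 13. Gzma differed by 1.28 with a 95% interval of -0.033 to 2.59, and Gzmb by 0.25 (-0.83 to 1.33). With WT replicate 1 left out, Gzma differed by 0.81 and Ncr1 by 0.69, and Gzmb differed by -0.17 with Stab2KO replicate 2 left out and 0.69 with Stab2KO replicate 3 left out. The NK median was 0.29 with either Stab2KO replicate 2 or WT replicate 1 left out, 0.68 with Stab2KO replicate 3 left out and 0.74 with WT replicate 3 left out.

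Among the marker lists of other cells given here, only the B cell mean lay apart from WT in the Stab2KO arrays. The Kupffer cell and pan-leukocyte means overlapped WT. The mean of 10 Kupffer cell genes lay between 7.14 and 7.56 in Stab2KO arrays, against 7.47 to 9.64 in WT. The mean of 6 B cell genes lay between 6.65 and 6.85 in Stab2KO, against 5.97 to 6.61 in WT, and 8 pan-leukocyte genes lay between 8.73 and 8.85, against 8.03 to 9.19. The part of these cells in the NK gene values was not tested.

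In DKO against WT, 13 of 15 NK genes had a higher mean, with a median of 0.42 log2, beside -0.023 over all genes, of which 44% lay above WT. None was called, while the call rate over all genes was 1.80%. Prf1 was the only NK gene with an unadjusted p under 0.05, beside 16.7% of all genes, and it differed by 0.84 ± 0.36 (SE, adjusted p = 0.28). Gzmb differed by 1.03 ± 0.49 (adjusted p = 0.32). It was the only NK gene whose DKO arrays all lay above WT, beside 8.97% of all genes. Gzma differed by 1.06, Nkg7 by 0.81 and Ncr1 by 0.80, each with an interval that included 0. With WT replicate 1 left out these were 0.59, 0.50 and 0.42, and with WT replicate 3 left out 1.66, 1.22 and 1.26. Tbx21 and Eomes were the members with a lower mean, at -0.025 and -0.08. Leaving out DKO replicate 1 gave a median of 0.19, leaving out WT replicate 1 gave 0.21 and leaving out WT replicate 3 gave 0.70. In DKO the neutrophil mean lay between 6.00 and 12.28, against 5.13 to 5.55 in WT, and the pan-leukocyte mean between 8.98 and 11.74, against 8.03 to 9.19. The neutrophil mean was highest in DKO replicate 3, where 12 of 15 NK genes were lowest, beside 46.1% of all genes. The part of neutrophils and other leukocytes in the NK gene values was not tested.

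In Stab1KO against WT, the NK genes had a median difference of -0.014 log2, with 5 above and 10 below WT, beside 51.9% of all genes above. None was called, none had an unadjusted p under 0.05 and none had separate arrays. Over all genes, 0.308% were called, 3.91% had an unadjusted p under 0.05, and 5.36% had all Stab1KO arrays above and 4.72% below WT. Klrg1 had the largest difference, -0.29 ± 0.24 (adjusted p = 1.00). The 95% intervals were wide: Gzma differed by 0.024 (-1.29 to 1.34), so a change of over 2-fold in either direction was within the interval. The interval extended to either side of the estimate by a median of 0.72 log2 over the NK genes, 0.35 over the T cell genes and 0.27 over all genes. It did so by 1.11 over Kupffer cell, 2.98 over neutrophil and 0.20 over LSEC markers. The NK median ran between -0.29, with WT replicate 1 left out, and 0.25, with WT replicate 3 left out. It was also positive with Stab1KO replicate 1 or 2 left out, so its sign rested on single arrays.

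**Figure D3:**
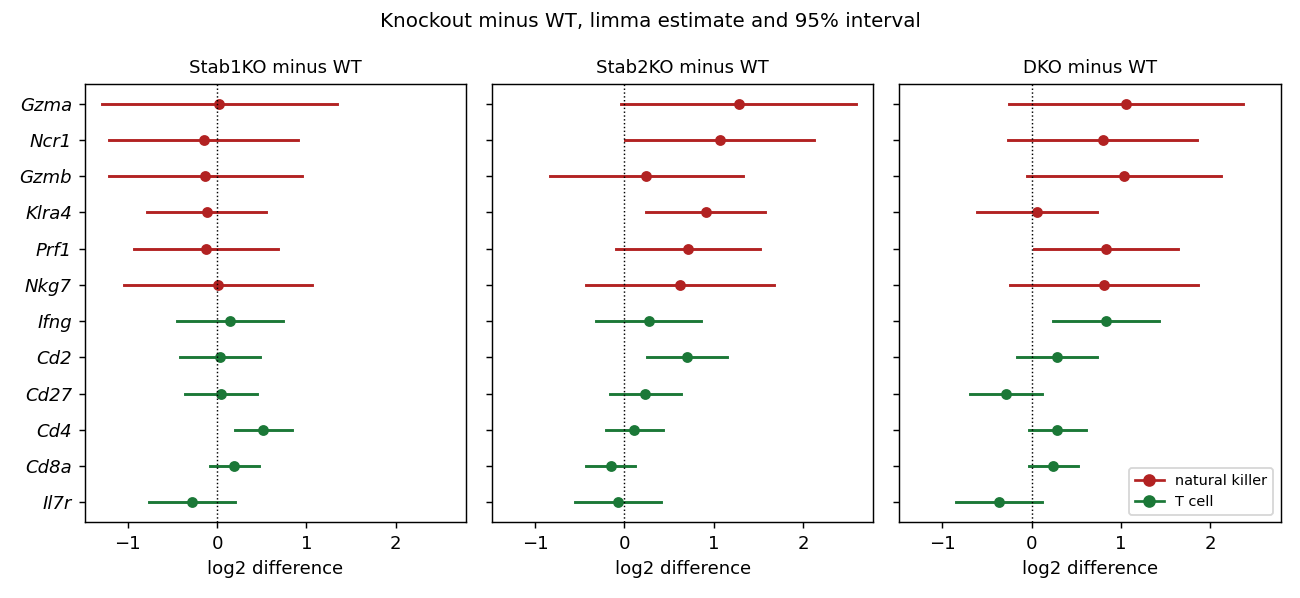
Log2 difference of Stab1KO, Stab2KO and DKO from WT (horizontal axis, 1 panel each) for the 6 NK and 6 T cell genes with the widest range of genotype means. Points are limma estimates and lines are 95% intervals; the NK intervals are the wider, and those that leave out 0 belong to genes that did not pass after adjustment over all genes.

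Of the T cell receptor complex, Cd3d, Cd3e and Cd3g encode the CD3 chains and Cd247 the zeta chain, which carry the receptor's signal. Over the 12 arrays Cd3d measured 4.08 to 4.85 log2, Cd3e 5.53 to 6.50, Cd3g 4.66 to 5.29 and Cd247 5.08 to 5.74. Cd3d stayed below the shared median of 5.11 in every array. The Cd3g genotype means differed by 0.02 log2, and the SD within genotypes was 0.26. Cd3e was highest in DKO replicate 3, at 6.50.

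The coreceptor gene Cd4, of helper T cells and also some myeloid and endothelial cells, measured 5.80, 5.94 and 5.93 log2 in Stab1KO, 5.63, 5.32 and 5.50 in Stab2KO, 5.55, 5.86 and 5.56 in DKO and 5.43, 5.62 and 5.06 in WT. All 3 Stab1KO arrays lay above all WT arrays, and 2 Stab2KO and 2 DKO arrays lay within the WT range. Cd8a, of cytotoxic T cells, measured 4.33, 4.50 and 4.38 log2 in Stab1KO, 4.19, 4.22 and 3.75 in Stab2KO, 4.51, 4.31 and 4.54 in DKO and 4.11, 4.24 and 4.28 in WT. These values all lie below the shared median, and Stab2KO replicate 3 was the lowest. Cd8b1, its partner chain gene, measured 4.22 to 4.81 and also stayed below the median.

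Cd2, an adhesion receptor gene of T and NK cells, measured 5.18, 5.21 and 6.02 log2 in Stab1KO, 6.18, 6.08 and 6.16 in Stab2KO, 5.98, 5.72 and 5.48 in DKO and 5.33, 5.43 and 5.55 in WT. The 3 Stab2KO arrays lay within 0.11 log2 of each other and above every WT array, and Stab1KO replicate 3 and DKO replicate 1 were also high. Cd27, a costimulatory receptor gene of the tumour necrosis factor receptor family, measured 6.69, 6.64 and 6.84 log2 in Stab1KO, 6.82, 7.26 and 6.67 in Stab2KO, 6.36, 6.74 and 6.08 in DKO and 6.76, 6.77 and 6.51 in WT. The DKO mean was the lowest, with replicate 3 lowest of all, and DKO overlapped WT. Cd28, the main costimulatory receptor gene of naive T cells, measured 5.18 to 6.10. Icos and Ctla4, genes of its activating and inhibitory relatives, measured 6.39 to 7.04 and 3.86 to 4.44. Cd5 and Cd6, genes of scavenger-domain receptors that tune the T cell receptor signal, measured 4.23 to 4.83 and 4.88 to 5.54. Zap70, the kinase gene, measured 4.65 to 5.35, and Lef1, a transcription factor gene of naive T cells, 4.36 to 4.90. Each knockout overlapped WT for Cd28, Icos, Cd5, Cd6, Zap70 and Lef1, whereas the DKO arrays lay above WT for Ctla4 (0.26 ± 0.13, adjusted p = 0.34).

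Ifng measured 5.16, 5.27 and 5.61 log2 in Stab1KO, 5.37, 5.85 and 5.22 in Stab2KO, 6.65, 5.86 and 5.61 in DKO and 5.06, 5.02 and 5.54 in WT. The 3 DKO arrays lay above the 3 WT arrays and overlapped both single knockouts. Il7r, the receptor gene of the survival cytokine interleukin 7, measured 3.88, 4.15 and 3.81 log2 in Stab1KO, 4.06, 4.37 and 4.05 in Stab2KO, 3.66, 3.96 and 3.98 in DKO and 3.75, 4.75 and 4.18 in WT. All its values were below the shared median, and WT replicate 2 was the highest. The chemokine receptor genes Cxcr3 and Cxcr6 measured 4.81 to 5.51 and 3.42 to 4.17. Cxcr6, which marks liver-resident lymphocytes, was below the median in every array. The median over the named genes was 5.12 log2. In every array, 8 of the 20 T cell genes and 2 of the 15 NK genes stayed below it, beside 10607 of 24011 genes. Above it in every array were 8 NK genes and 5 T cell genes, beside 10874 of 24011 genes. The 5 T cell genes were Cd2, Cd27, Cd28, Cd3e and Icos.

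**Figure D4:**
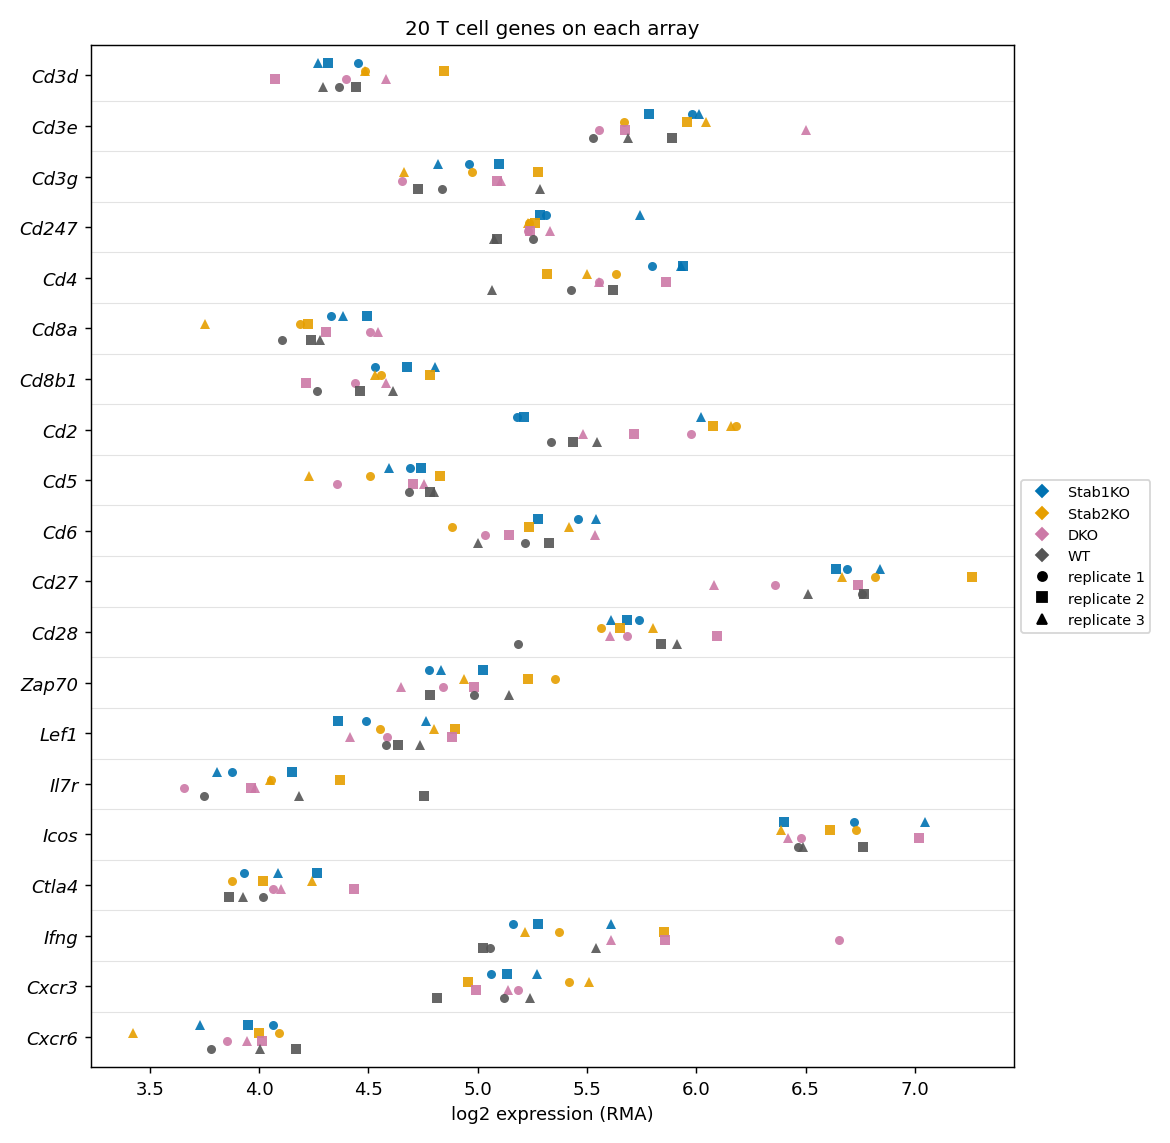
Log2 expression (horizontal axis) of the 20 T cell genes, 1 row per gene, with a point for each of the 12 arrays coloured by genotype and shaped by replicate. Most genes span under 1 log2 over all arrays; Ifng spans 1.63, with DKO replicate 1 furthest right.

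In DKO against WT, 0 of 20 T cell genes were called, beside 1.80% of all genes, and the median difference was 0.051 log2, which turned to -0.012 with DKO replicate 3 left out and was also below 0 with WT replicate 1 left out. Ifng had the largest difference, 0.83 ± 0.27 (SE, limma adjusted p = 0.15), and was the only one of 20 with an unadjusted p under 0.05, beside 16.7% of all genes. Its difference was 0.53 without DKO replicate 1 and 1.05 without DKO replicate 3. With arrays weighted by their scatter it was 0.96 and passed by a small margin (adjusted p = 0.0499). Cd8a, Ctla4 and Ifng had all DKO arrays above WT, 3 of 20, beside 8.97% of all genes. Il7r and Cd27 differed by -0.36 and -0.28 without passing. Il7r differed by -0.60 with WT replicate 1 left out and -0.097 with WT replicate 2 left out, and Cd27 by -0.46 with DKO replicate 2 left out and -0.13 with DKO replicate 3 left out.

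In Stab2KO against WT, 0 of 20 were called and the median was 0.11 log2. Cd2 had the largest difference, 0.70 ± 0.20 (adjusted p = 0.36), and alone of the 20 had an unadjusted p under 0.05, beside 7.62% of all genes. Cd2 and Cd3d had separate arrays, both above WT, beside 8.09% of all genes. In Stab1KO against WT, 0 of 20 were called and the median was 0.071 log2, with 0.030 when Stab1KO replicate 3 was left out and 0.15 when Stab1KO replicate 1 or WT replicate 3 was. Cd4 differed by 0.52 ± 0.14 (adjusted p = 0.63) and Cd247 by 0.31 ± 0.11 (adjusted p = 1.00), and these 2 of 20 had an unadjusted p under 0.05, beside 3.91% of all genes. Cd4, Cd247 and Cd8a had all 3 Stab1KO arrays above WT, beside 5.36% of all genes. The 3 comparisons share the WT arrays.

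Comparisons among the knockouts gave 0 calls in either list. In Stab2KO against Stab1KO, all 15 NK genes had a higher mean in Stab2KO, with a median of 0.51 log2, beside 50.1% of all genes higher and 0.108% called. Of these, Ncr1, Klre1, Klra4, Klrg1, Prf1 and Eomes had an unadjusted p under 0.05, 6 of 15 beside 7.07% of all genes. Their differences were 1.22, 0.63, 1.02, 0.66, 0.84 and 0.49, with adjusted p from 0.48 to 0.69. All Stab2KO arrays lay above all Stab1KO arrays for Ncr1, Klre1, Klra4 and Eomes, beside 6.61% of all genes. The mean of the 15 NK genes overlapped, between 6.04 and 6.75 in Stab2KO arrays and between 5.47 and 6.27 in Stab1KO arrays. These genes rose and fell together between arrays, so the 15 are not independent observations. The T cell genes had a median of -0.020 log2, with 9 higher and 11 lower. At an unadjusted p under 0.05, beside 7.07% of all genes, Cd2 was higher by 0.67 and Cd4 and Cd8a lower, at -0.41 and -0.35 (adjusted p = 0.49, 0.58 and 0.58). Without Stab1KO replicate 3, the Stab1KO array highest in NK genes, Cd2 differed by 0.94 and was called (adjusted p = 0.0493).

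In DKO against Stab1KO, 14 of 15 NK genes had a higher mean, with a median of 0.36 log2, beside 41.4% of all genes higher and 0.945% called. Klrg1, Gzmb and Prf1 had all DKO arrays above all Stab1KO arrays, beside 6.88% of all genes, and differed by 0.60, 1.16 and 0.96 (adjusted p = 0.26, 0.27 and 0.23). These 3 and Ifng, at 0.69, had an unadjusted p under 0.05, beside 16.2% of all genes. In DKO against Stab2KO, where 3.42% of all genes were called, a count of 822 that was 45 with Stab2KO replicate 2 left out, the NK median was -0.059 and 6 of 15 NK genes had a higher mean, beside 42.2% of all genes. Klra4, Eomes and Tbx21 had all DKO arrays below all Stab2KO arrays, 3 of 15 beside 13.8% of all genes. Klra4 and Eomes, at -0.85 and -0.45 (adjusted p = 0.16 and 0.25), had an unadjusted p under 0.05, beside 18.9% of all genes. Of the T cell genes the same held for Cd8a, at 0.40, Cd27, at -0.52, and Zap70, at -0.35 (adjusted p = 0.11, 0.15 and 0.20).

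The departure from additivity, defined as DKO minus Stab2KO minus the difference of Stab1KO from WT, was not called for any member, beside 0.05% of all genes called. Its median was -0.04 log2 over the NK genes and -0.14 over the T cell genes, beside -0.043 over all genes. It was above 0 for 5 of 15 NK and 5 of 20 T cell genes, beside 41.6% of all genes. At an unadjusted p under 0.05, Cd8b1 (-0.44) and Cd27 (-0.57) passed, 2 of 35 members beside 12.5% of all genes. The effect of one loss was thus not shown to depend on the other for any of these genes.

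**Figure D5:**
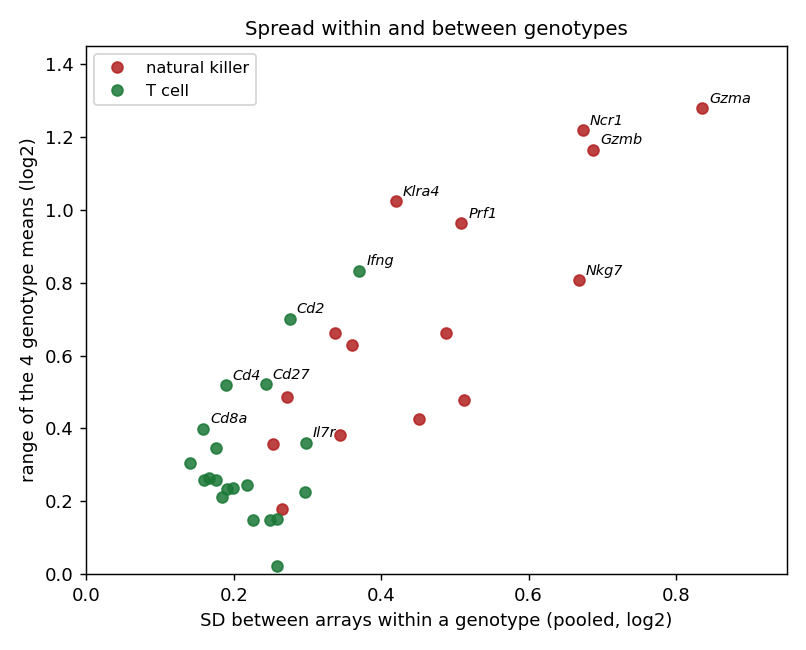
For each of the 35 members, the range of the 4 genotype means (vertical axis, log2) against the pooled SD between arrays of a genotype (horizontal axis, log2). NK genes reach SDs of 0.84 and T cell genes 0.37; genes with a wide range of genotype means, such as Gzma and Ncr1, also have a wide spread within genotypes.

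The pooled SD within genotypes had a median of 0.45 log2 over the NK genes, 0.21 over the T cell genes and 0.15 over all genes. It exceeded 0.30 for 12 of 15 NK genes and for 1 T cell gene, Ifng. The median SE of a difference from WT was 0.32 log2 over the NK genes. Over markers of other cells it was 0.50 for Kupffer cells, 0.65 for pan-leukocyte genes, 0.47 for hepatocytes and 1.35 for neutrophils. For B cell and LSEC markers it was smaller, at 0.26 and 0.089. A wide spread was thus not particular to the NK genes. Whether the smaller spread of the T cell genes goes with their expression levels was not tested.

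Of the other genes of these pathways, 1 was called in a comparison against WT. Cxcl12, a chemokine gene expressed by stellate cells and endothelium whose receptor is found on lymphocytes, measured 7.36, 6.59 and 7.31 log2 in Stab1KO, 7.89, 7.88 and 7.67 in Stab2KO, 7.14, 6.89 and 6.93 in DKO and 9.32, 9.77 and 9.45 in WT. All knockout arrays lay below all WT arrays. It fell by 2.42 in Stab1KO, by 1.70 in Stab2KO and by 2.52 in DKO, with adjusted p of 0.00033, 0.0062 and 0.00012. Between knockouts it differed in DKO against Stab2KO, by -0.82 ± 0.19 (adjusted p = 0.046). The mean of the stellate cell markers was lower in the same arrays: over 9 genes it lay between 6.63 and 7.45 in the 9 knockout arrays, against 8.59 to 9.08 in WT. Their part in the Cxcl12 values was not tested. The other 9 genes of the chemoattractant list were not called. In DKO against WT, 5 of the 10 genes were higher at an unadjusted p under 0.05, beside 1432 of 24011 genes. The median difference of the list was 0.52 log2. Ccl3 had the largest rise, 1.83 without a call, at a mean of 11.49 in DKO against 9.65 in WT. The part of the neutrophils of DKO replicate 3 in these values was not tested.

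No gene was called against WT among 24 NK receptors and adaptors, 10 cytotoxic effectors, 13 T cell receptor signalling genes, 18 T cell identity genes, 7 genes of tissue-resident lymphocytes or 12 cytokine and receptor genes of lymphocyte survival. In these lists, the largest differences without a call were in DKO. Il18rap, an interleukin 18 receptor chain gene, differed by 2.09 ± 0.85 log2. Stat4, a signal transducer of interleukin 12, differed by 1.47 ± 0.57. Tyrobp, the DAP12 adaptor gene of NK and myeloid cells, differed by 1.46 ± 0.79. Each was highest in DKO replicate 3, the array with the neutrophil genes, at 9.48, 8.72 and 10.86 log2, against 6.12, 6.68 and 7.14 in DKO replicate 1. In Stab2KO, Ccr7, the homing receptor gene of naive T cells and mature dendritic cells, differed by 0.70 ± 0.19 (adjusted p = 0.32), and in Stab1KO by -0.52 ± 0.19 (adjusted p = 1.00). Il18, the gene of an interleukin that activates NK cells, was higher in DKO than in Stab2KO by 0.69 ± 0.13 (adjusted p = 0.027), the 1 call of that list among the comparisons of knockouts.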

How the data were processed

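The deposited values are log2 expression, 1 per gene identifier and array. RMA was used per the submitters' processing notes; its version and the genome build are not given there. Of 24973 rows, 24015 had a symbol in the platform annotation, and the row with the highest mean was kept per symbol, leaving 24011 genes. The members, lists, tests and alternatives were chosen with earlier results of these data known. Genes were tested by limma 3.58.1, run under R 4.3.3, with 4 group means over 12 arrays, without trend or robust options, two-sided, adjusted over all genes within each of 7 contrasts. The fit was checked on simulated data. All members are described. Values per array are given for the 6 NK and 6 T cell genes with the widest range of genotype means; of each further list, the called genes or some of those with the largest change are named. Alternatives were a replicate block, a filter on dim genes, trend and robust options, array weights, further normalization, every row, only the 6 arrays compared, a minimum difference of 1 log2 and each array left out. Promoters came from RefSeq. Precision is limited by the number of arrays.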

Additional observations from a re-analysis of the deposited data

How the results depend on the processing

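The count of called NK genes was 0 in all 7 comparisons under all 8 alternatives that could be fitted and all 12 fits without 1 array. For the T cell genes it was 1 instead of 0 with array weights in DKO against WT (Ifng, 0.96 log2), and 0 to 1 without 1 array in Stab2KO against Stab1KO (1, Cd2, without Stab1KO replicate 3); it was 0 elsewhere. The filter on dim genes left 14 NK and 15 T cell genes. The departure from additivity has no fit with only 6 arrays. With the replicate block the counts were 0. Deviations of same-numbered arrays correlated at -0.064 to 0.291, so the numbers were not taken to pair the arrays. Calls over all genes were 74 in Stab1KO, 71 in Stab2KO and 432 in DKO against WT, 227 in DKO against Stab1KO, 822 in DKO against Stab2KO, 26 in Stab2KO against Stab1KO and 12 for the departure from additivity. Counts over 1.5 times apart from these were, with array weights, 148 in Stab2KO and 1111 in DKO against WT, and 466, 1789, 41 and 199 for the last 4 comparisons; with only 6 arrays, 29 and 97 for the same 2 comparisons with WT and 18, 4 and 15 among knockouts; with a difference of at least 1 log2, 42 and 151, and 86, 143 and 17; and for the departure, 6 with the replicate block, 28 without dim genes and 35 with trend and robust options. Without 1 array the counts ranged from 46 to 81 in Stab1KO, 33 to 92 in Stab2KO and 125 to 510 in DKO against WT. They ranged from 22 (without Stab1KO replicate 2) to 357 (without DKO replicate 3) in DKO against Stab1KO, and from 45 (without Stab2KO replicate 2) to 854 (without Stab2KO replicate 3) in DKO against Stab2KO. They ranged from 12 (without Stab2KO replicate 2) to 43 (without DKO replicate 3) in Stab2KO against Stab1KO, and from 3 to 112 (without DKO replicate 3) for the departure, so the shares of all genes called in these comparisons rest on single arrays. With array weights, the differences from WT in Stab1KO turned to -0.048 for Gzma, -0.025 for Nkg7 and -0.027 for Cd2. Without 1 array, uncalled differences from WT changed sign. In Stab1KO they ranged from -0.50 to 0.63 for Gzma, -0.53 to 0.31 for Ncr1, -0.52 to 0.28 for Gzmb, -0.33 to 0.15 for Klra4, -0.44 to 0.25 for Prf1, -0.45 to 0.44 for Nkg7, -0.24 to 0.18 for Cd2 and -0.039 to 0.088 for Cd27. In Stab2KO they ranged from -0.17 to 0.69 for Gzmb, -0.039 to 0.24 for Cd4 and -0.31 to 0.19 for Il7r. In DKO they ranged from -0.14 to 0.29 for Klra4.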
